A study of Mus musculus with 16 samples.

Results

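A set of 10 genes that encode scavenger receptors and lectins of macrophages and dendritic cells was followed through imiquimod treatment in mouse spleen: Cd163, Mrc1, Cd36, Marco, Cd209b, Msr1, Siglec1, Cd209a, Clec4n and Cd209d. They were taken by symbol, and all 10 were found among the 55291 gene symbols of the deposited tables. The 16 libraries were made from spleens of male C57BL/6 mice, either wild type (WT) or lacking PKR (PKR KO), the RNA-activated kinase encoded by Eif2ak2. Treated mice had a daily 62.5 mg dose of cream with 5% imiquimod, an agonist of the RNA-sensing Toll-like receptor TLR7, on shaved back skin, and spleens were taken after 1, 2 or 5 days of treatment. The controls were day 0 mice of each genotype, and no group with vehicle cream was among the 16 libraries. Each of the 8 groups of genotype and day had 2 libraries, and each library pooled the RNA of 2 spleens. Spleens were passed through a 70 µm mesh and red cells were lysed before RNA extraction. All 10 genes of a list that marks spleen, mostly of its B and T cells, had counts in every group. The sources used here give neither ages nor how the PKR KO allele was made.

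The spleen holds several macrophage populations that differ in place and in receptors. Red pulp macrophages clear aged red cells and recycle their iron, and CD163, a receptor for haemoglobin bound to haptoglobin, and the mannose receptor MRC1 are found on macrophages of this kind. Marginal zone macrophages face the blood stream and carry MARCO and SIGN-R1, the product of Cd209b, while metallophilic macrophages at the border of the white pulp carry SIGLEC1 (CD169). DC-SIGN, the product of Cd209a, is found on subsets of dendritic cells and on cells derived from monocytes, and Dectin-2, the product of Clec4n, recognises fungal mannans on myeloid cells. MSR1 (scavenger receptor A) takes up modified lipoproteins, and CD36 takes up fatty acids and oxidised lipids. CD36 is also made by platelets, endothelium and some B cells, so its transcript is not tied to macrophages.

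The promoters of the 4 genes that were called lower on day 1 in both genotypes are shown first, to set the sequence beside the values. RefSeq sequence of GRCm38.p6 was held for 7 of the 10 genes, and the stretches below lie upstream of every annotated start of the gene and read 5′ to 3′ on its own strand. Capitals mark GGAAGT or its reverse complement ACTTCC, the core bound by ETS factors such as PU.1, a factor of the macrophage lineage.
Cd163, chr6:124304401-124304650, plus strand: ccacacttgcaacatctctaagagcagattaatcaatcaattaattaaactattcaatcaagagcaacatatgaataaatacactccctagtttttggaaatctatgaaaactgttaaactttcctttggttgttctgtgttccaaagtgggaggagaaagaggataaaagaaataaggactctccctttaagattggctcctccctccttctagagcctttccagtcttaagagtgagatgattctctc
Mrc1, chr2:14229164-14229391, plus strand: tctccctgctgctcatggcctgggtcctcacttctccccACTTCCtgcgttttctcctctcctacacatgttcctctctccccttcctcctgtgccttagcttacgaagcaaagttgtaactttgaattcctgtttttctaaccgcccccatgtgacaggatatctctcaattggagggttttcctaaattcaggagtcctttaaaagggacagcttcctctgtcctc
Cd209a, chr8:3748985-3749234, minus strand: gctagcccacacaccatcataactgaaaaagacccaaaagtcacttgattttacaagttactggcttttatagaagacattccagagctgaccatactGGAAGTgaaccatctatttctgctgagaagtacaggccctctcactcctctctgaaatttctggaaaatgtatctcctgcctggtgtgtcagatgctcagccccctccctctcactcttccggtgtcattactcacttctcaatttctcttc
Cd209d, chr8:3878556-3878749, minus strand: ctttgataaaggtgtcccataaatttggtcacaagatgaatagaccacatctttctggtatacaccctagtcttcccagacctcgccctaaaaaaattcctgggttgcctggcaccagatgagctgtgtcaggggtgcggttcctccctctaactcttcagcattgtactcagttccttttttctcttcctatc

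On either strand, GGAAGT was found in the 250 bases before the RefSeq start of 4 of the 7 genes (Mrc1, Cd36, Cd209a and Cd209d) and in 19.7% of 32851 promoter windows of that length. The match of Cd209d lies outside the stretch printed above. These are matches of letters and no binding was measured. A second motif, of 10 bases, was searched for in the same windows. It was found in 0 of the 7 genes and in 2.98% of the 32851 windows. Cd209a, Cd209b and Cd209d lie near each other on chromosome 8, and the transcripts counted for them shared 0% of their 31-base words with other genes. For Clec4n, 2.5% of such words also occurred in Gm44147 or Clec4b1, so a small part of its count may be shared.

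Library totals ran from 35026754 to 67333830 fragments. Levels of 1 gene across libraries are given as CPM (counts scaled to a common library size, on library totals scaled by TMM factors). Levels of different genes are compared as FPKM, which also divides by transcript length but carries no TMM factor. These factors were highest in the 2 WT day 1 libraries, at 1.204 and 1.195, against 0.9331 to 1.069 in the others. FPKM of WT day 1 is therefore not on the scale of other days. Mean Cd36 in WT was 8.81 FPKM at day 0 and 10.3 on day 1, but 30.7 and 29.2 CPM. In PKR KO, the Eif2ak2 transcript was still counted: at day 0 it was at 12.4 and 15.4 CPM, against 24.9 and 26.6 in WT. The library labelled KO_D2 replicate 1 had 47.5 CPM, above both WT day 2 libraries (32.8 and 42.5), which goes against its label. The deleted part of the gene is not named in the labels, so this transcript is a weak check. Fitted PKR KO day 2 differences printed here are therefore also given without that library.

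**Figure D1:**
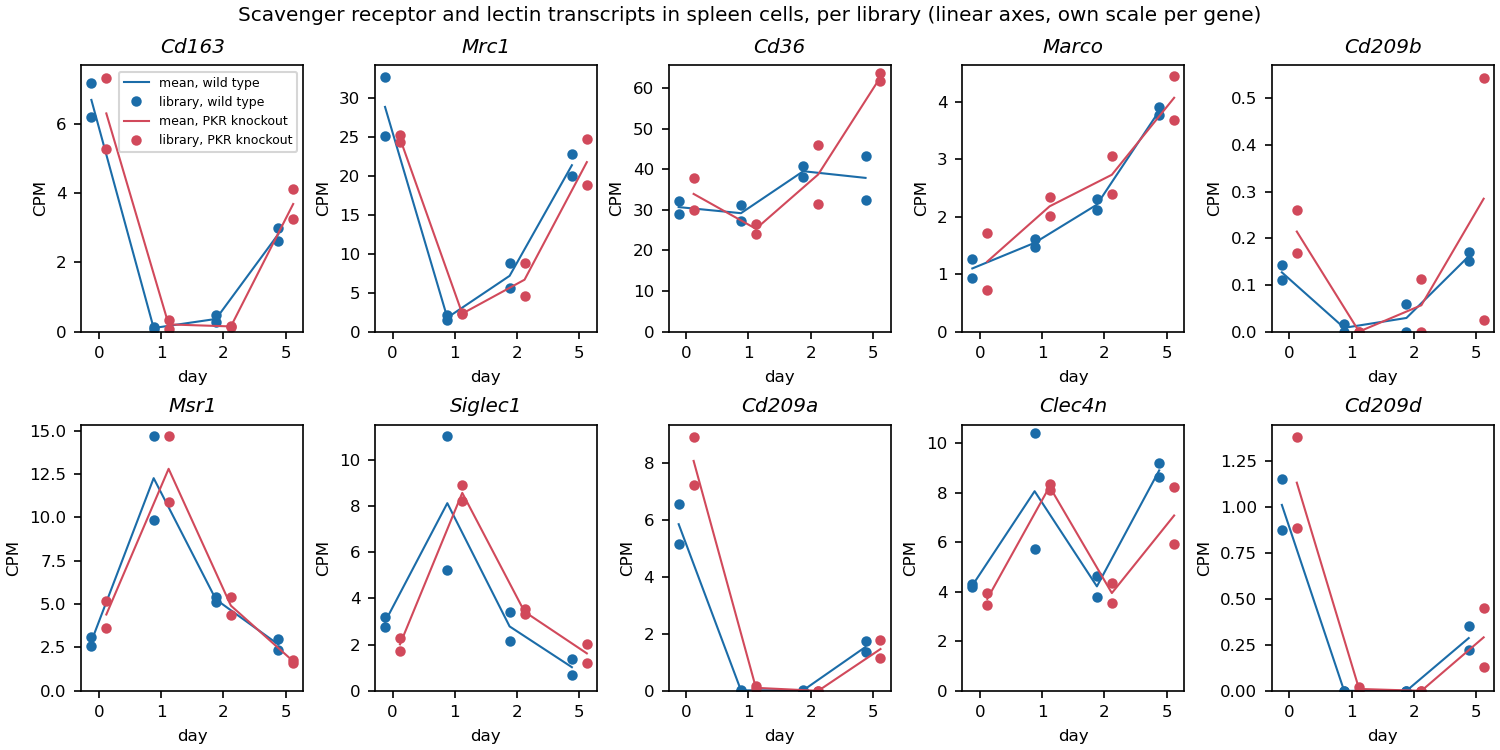
CPM of each of the 10 transcripts (vertical axis, linear, own scale per gene) on days 0, 1, 2 and 5 (horizontal axis, not to scale in time); points are the 2 libraries of a group, lines join group means. Cd163, Mrc1, Cd209a and Cd209d drop on day 1, Msr1, Siglec1 and Clec4n are highest or high on day 1, and Marco is highest on day 5.

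At day 0 in WT, Cd36 had the highest level of the 10 genes, at 8.81 ± 0.109 FPKM (SD, n = 2), followed by Mrc1 at 5.22 ± 0.65. Cd209a (3.89 ± 0.889) and Clec4n (3.38 ± 0.125) came next and overlapped. Cd163 stood at 1.47 ± 0.0635 FPKM, above Marco at 0.554 ± 0.089 and Siglec1 at 0.455 ± 0.0205. Cd209b, a defining gene of marginal zone macrophages, was near 0 at 0.0604 ± 0.0073 FPKM. By day 1 in WT the order had changed: Cd36 (10.3 ± 0.881) and Clec4n (7.88 ± 3.29) overlapped at the top, Msr1 reached 4.04 ± 1.15, and Mrc1 and Cd163 lay at 0.399 ± 0.0996 and 0.0279 ± 0.01 FPKM.

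Cd163 showed the deepest loss among the genes with counts in every group. At days 0, 1, 2 and 5, its WT libraries held 6.21 and 7.19, 0.129 and 0.0772, 0.467 and 0.264, and 3.01 and 2.62 CPM. The PKR KO libraries held 7.34 and 5.28, 0.333 and 0.082, 0.169 and 0.129, and 4.12 and 3.26 CPM. In both genotypes every treated library lay below both day 0 libraries, and day 5 lay between day 0 and the earlier days. Each SE given below was derived from the test, as the size of the log2 change divided by the square root of its F value. On the log2 scale Cd163 fell by 6.02 ± 0.393 (SE) on day 1 in WT (edgeR quasi-likelihood test, Benjamini-Hochberg adjusted p = 4.46e-09), by 4.24 on day 2 (adjusted p = 2.39e-08) and by 1.25 on day 5 (adjusted p = 0.00144). In PKR KO it fell by 4.96 ± 0.381 on day 1 (adjusted p = 1.78e-08) and by 5.39 on day 2 (adjusted p = 6.61e-09; without the library labelled KO_D2 replicate 1 the change was -5.59). The day 5 difference in PKR KO, -0.77 (adjusted p = 0.028), did not pass without KO_D0 replicate 1 (adjusted p = 0.315), KO_D5 replicate 1 (0.0724) or KO_D5 replicate 2 (0.222). The day 1 change in PKR KO was -6.22 without KO_D1 replicate 1 and -4.24 without KO_D1 replicate 2, and both libraries together held 18 counts.

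Mrc1 followed the same course at a higher level. In the same order of days, WT libraries held 25.1 and 32.7, 2.1 and 1.48, 8.76 and 5.58, and 22.8 and 20 CPM. In PKR KO they held 24.4 and 25.3, 2.26 and 2.36, 8.77 and 4.58, and 24.8 and 18.8 CPM. Day 1 and day 2 did not overlap with day 0 in either genotype, and in PKR KO the day 5 libraries overlapped with day 0. Mrc1 fell by 4.02 ± 0.316 on the log2 scale on day 1 in WT (edgeR, adjusted p = 1.02e-06) and by 3.43 ± 0.315 in PKR KO (adjusted p = 3.51e-06). On day 2 in PKR KO its difference from day 0 was -1.90 (adjusted p = 0.000142), and -2.44 (adjusted p = 5.42e-06) without the library labelled KO_D2 replicate 1. It rose again from day 1 to day 2, by 2.00 in WT (adjusted p = 0.000532) and 1.53 in PKR KO (adjusted p = 0.00457), the latter being 0.99 (adjusted p = 0.0319) without the library labelled KO_D2 replicate 1. At day 5 its difference from day 0 was -0.43 ± 0.269 in WT (adjusted p = 0.225) and -0.19 ± 0.27 in PKR KO (adjusted p = 0.607). The WT value passed with no filter on low counts (-0.43, adjusted p = 0.0323) and in a fit of the compared groups only (-0.44, adjusted p = 0.0349). Because these are bulk libraries, fewer cells of a type and less RNA per cell cannot be told apart, here and in the results that follow.

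Cd209a was all but lost on days 1 and 2. Its WT libraries held 6.56 and 5.16, 0.0323 and 0, 0 and 0.0406, and 1.74 and 1.35 CPM at days 0, 1, 2 and 5. Those of PKR KO held 7.25 and 8.92, 0.0475 and 0.164, 0 and 0, and 1.79 and 1.15 CPM. The day 0 libraries lay above every treated library in both genotypes. The 622 WT counts at day 0 compared with 2 on day 1, a level 401-fold lower (95% exact interval 111 to 3322, counting error only), and with 2 on day 2, 240-fold lower (66.1 to 1985). PKR KO went from 687 counts to 10 on day 1, 72.7-fold lower (39.3 to 152), and to 0 on day 2, at least 100-fold lower against a floor of 3 counts per library. The fitted log2 changes of Cd209a depended on single libraries. In WT the change was -8.42 on day 1, -11.02 without WT_D1 replicate 1 and -7.37 without WT_D1 replicate 2, and -7.78 on day 2, -7.08 without WT_D2 replicate 1 and -11.04 without WT_D2 replicate 2. The values of -11.02 and -11.04 compare with a library at 0 counts and are no measure of size. In PKR KO the day 1 change was -6.17, and -7.33 without KO_D1 replicate 2. On day 5 the log2 difference of Cd209a from day 0 was -1.92 in WT (SE 0.311, edgeR adjusted p = 0.000107) and -2.45 in PKR KO (SE 0.317, adjusted p = 7.37e-06).

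Cd209d, a neighbouring gene of the same family, moved with Cd209a at a lower level. Levels at days 0, 1, 2 and 5 were 1.15 and 0.873, 0 and 0, 0 and 0, and 0.354 and 0.22 CPM in WT. They were 0.885 and 1.38, 0 and 0.0205, 0 and 0, and 0.129 and 0.453 CPM in PKR KO. Against the floor, WT was at least 23.2-fold lower on day 1 and at least 13.6-fold lower on day 2. The day 5 differences were -1.80 in WT (edgeR adjusted p = 0.0113) and -1.98 in PKR KO (adjusted p = 0.00646). Neither held without each single library: the WT value did not pass without WT_D0 replicate 1 (adjusted p = 0.0675) or WT_D5 replicate 2 (0.117), and the PKR KO value without KO_D0 replicate 2 (0.0771) or KO_D5 replicate 1 (0.121). Without KO_D5 replicate 2 the PKR KO value was -3.04. Cd209b had 14 counts in WT and 18 in PKR KO at day 0, summed over both libraries, and 1 and 0 on day 1. Its PKR KO day 1 change passed the test (adjusted p = 0.0221) but not without KO_D0 replicate 2 (0.0879), KO_D1 replicate 1 (0.0853) or KO_D1 replicate 2 (0.0991), and the level was at least 3.23-fold lower. Cd209b and Cd209d passed the filter on low counts through their day 0 and day 5 libraries.

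Msr1 went the other way on day 1. On days 0, 1, 2 and 5 WT libraries held 2.61 and 3.1, 14.7 and 9.82, 5.11 and 5.42, and 2.98 and 2.37 CPM. For PKR KO the values were 3.65 and 5.15, 10.9 and 14.7, 4.4 and 5.42, and 1.63 and 1.78 CPM. Day 1 was above every other day in both genotypes, with no overlap. Msr1 rose by 2.09 ± 0.226 on the log2 scale on day 1 in WT (edgeR adjusted p = 1.02e-06) and by 1.55 ± 0.222 in PKR KO (adjusted p = 2.2e-05). On day 2 the difference from day 0 was 0.88 ± 0.23 in WT (adjusted p = 0.00425) and 0.17 ± 0.228 in PKR KO (adjusted p = 0.572, and 0.31 with an adjusted p of 0.386 without the library labelled KO_D2 replicate 1). On day 5 it was below its day 0 level in PKR KO, with a difference of -1.36 ± 0.252 (adjusted p = 0.000244), and at -0.10 ± 0.239 in WT (adjusted p = 0.78). The difference between those changes, -1.26 ± 0.348, did not pass the test (adjusted p = 0.537).

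Siglec1, the metallophil receptor and a gene induced by type I interferon, was also highest on day 1. In WT its levels at days 0, 1, 2 and 5 were 2.76 and 3.21, 11 and 5.23, 2.16 and 3.41, and 1.36 and 0.685 CPM. PKR KO had 2.3 and 1.72, 8.22 and 8.9, 3.52 and 3.32, and 1.22 and 2.02 CPM. Both day 1 libraries of each genotype lay above all its other libraries. The rise was 1.43 ± 0.343 in WT (edgeR adjusted p = 0.00393) and 2.08 ± 0.362 in PKR KO (adjusted p = 0.00039). Without WT_D1 replicate 1 the WT value was 0.82 (adjusted p = 0.0544). On day 5 Siglec1 was lower than at day 0 in WT, by a difference of -1.55 ± 0.4 (adjusted p = 0.00716), which did not pass without WT_D0 replicate 2 (0.0545) or WT_D5 replicate 2 (0.0889), and at -0.33 ± 0.399 in PKR KO (adjusted p = 0.538).

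Clec4n had 2 high points. Over days 0, 1, 2 and 5, WT had 4.18 and 4.32, 10.4 and 5.71, 3.8 and 4.63, and 8.61 and 9.18 CPM. Its PKR KO libraries held 3.96 and 3.46, 8.36 and 8.12, 3.55 and 4.34, and 5.93 and 8.22 CPM. Days 1 and 5 lay above days 0 and 2 in each genotype, with no overlap. Clec4n rose by 0.92 ± 0.228 on day 1 (edgeR adjusted p = 0.00326) and 1.07 ± 0.231 on day 5 (adjusted p = 0.00132) in WT, and by 1.15 ± 0.235 (adjusted p = 0.000744) and 0.92 ± 0.238 (adjusted p = 0.00396) in PKR KO. Without WT_D1 replicate 1 the WT day 1 value was 0.44 (adjusted p = 0.131), and without KO_D5 replicate 2 the PKR KO day 5 value was 0.73 (adjusted p = 0.0504).

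Marco, the marginal zone scavenger receptor with collagen-like structure, was highest on day 5. WT libraries of days 0, 1, 2 and 5 held 0.928 and 1.27, 1.48 and 1.61, 2.31 and 2.11, and 3.91 and 3.77 CPM. Libraries of PKR KO held 1.71 and 0.728, 2.35 and 2.01, 2.4 and 3.06, and 4.45 and 3.69 CPM. Every treated library lay above the day 0 libraries of its genotype. Marco rose by 1.79 ± 0.29 on day 5 in WT (edgeR adjusted p = 8.79e-05) and by 1.72 ± 0.293 in PKR KO (adjusted p = 0.000112). The day 0 libraries of PKR KO differed from each other, and without KO_D0 replicate 1 the PKR KO day 5 value was 2.55. Earlier values were smaller: 0.48 on day 1 (adjusted p = 0.192) and 0.99 on day 2 (adjusted p = 0.011) in WT, and 0.81 (adjusted p = 0.0355) and 1.14 (adjusted p = 0.00377, 1.30 without the library labelled KO_D2 replicate 1 and 1.99 without KO_D0 replicate 1) in PKR KO. The WT day 2 value did not pass without WT_D0 replicate 1 (0.0649) or WT_D2 replicate 1 (0.055). The PKR KO day 1 value did not pass without KO_D0 replicate 2 (0.349), KO_D1 replicate 1 (0.162) or KO_D1 replicate 2 (0.0617), and was 1.60 without KO_D0 replicate 1.

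Cd36 moved least in WT. Its levels there were 29.1 and 32.3, 27.3 and 31.1, 38.2 and 40.9, and 43.4 and 32.4 CPM at days 0, 1, 2 and 5, and no WT difference from day 0 passed the test (adjusted p from 0.089 to 0.745). Levels in PKR KO were 30.1 and 37.8, 24.1 and 26.6, 46.1 and 31.4, and 63.7 and 61.8 CPM. Both day 2 and both day 5 libraries of WT lay above its day 0 libraries, day 5 by a narrow margin in 1 library. In PKR KO both day 1 libraries lay below day 0 (-0.42 ± 0.171, edgeR adjusted p = 0.0572), day 2 overlapped with it, and both day 5 libraries lay above every other library. The rise to day 5 in PKR KO was 0.89 ± 0.17 (adjusted p = 0.000415) and the only difference of Cd36 from day 0 that passed the test as fitted here. Other settings called more: the WT day 2 difference passed with no filter on low counts (0.37, adjusted p = 0.0259) and with the compared groups only (0.40, adjusted p = 0.0192). The PKR KO day 1 difference passed in those fits (adjusted p = 0.0131 and 0.0336), with an FPKM filter (0.0476) and without KO_D0 replicate 1 (0.0381).

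**Figure D2:**
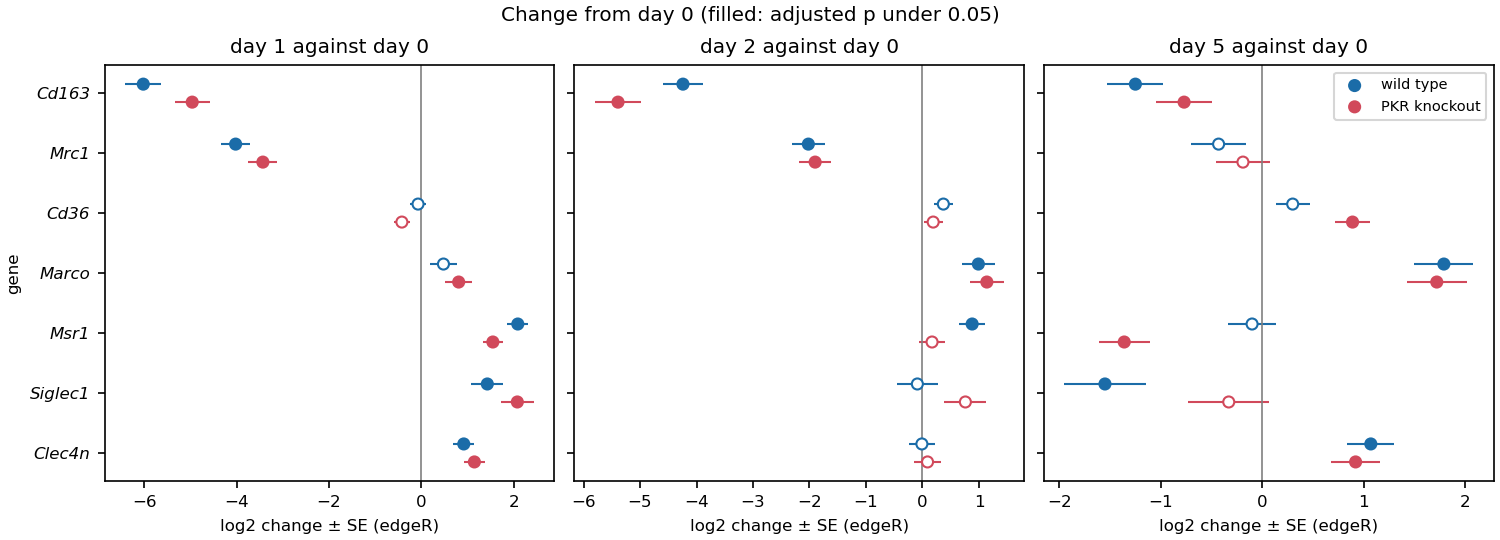
Log2 change from day 0 (horizontal axis, edgeR, bars ± SE) on days 1, 2 and 5 for the 7 genes with counts in every library; blue is wild type, red PKR knockout, filled points have an adjusted p under 0.05. The SE is the size of the change divided by the square root of the F value of its test. Horizontal scales differ between panels. Cd163 and Mrc1 lie left of 0 on days 1 and 2, and Marco lies right of 0 on day 5.

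On day 1, 3 of the 10 genes were higher and 4 lower in WT, where 21.9% and 22.7% of the 18745 genes tested were higher and lower. In PKR KO 4 were higher and 5 lower (20.7% and 20.9% of all genes). The genes called in both genotypes were Msr1, Siglec1 and Clec4n, higher, and Cd163, Mrc1, Cd209a and Cd209d, lower. Cd209a, Cd209b and Cd209d had at most 10 counts per group on days 1 and 2, and Cd163 had 14 in WT and 18 in PKR KO on day 1. Genes this low are tested through the days on which they are higher, so the lower counts of days 1 and 2 are a description and support nothing. On day 2, 2 were higher and 4 lower in WT (22.3% and 23% of all genes), and 1 higher and 4 lower in PKR KO (24% and 25.6%). On day 5, 2 were higher and 4 lower in WT (21.5% and 18%), and 3 higher and 4 lower in PKR KO (22.8% and 22.1%). The 3 comparisons of a genotype share its day 0 libraries. Some of these counts moved by over 1.5 times when 1 library was left out. The higher count on WT day 1 was 1 without WT_D1 replicate 1, and that on WT day 2 was 1 without WT_D0 replicate 1 or WT_D2 replicate 1. The lower count on day 5 was 2 without WT_D5 replicate 2 in WT and 2 without KO_D5 replicate 1 in PKR KO. On PKR KO day 2 the higher count was 2 without KO_D2 replicate 2 (Cd36, 0.50, adjusted p = 0.021, was added), while without the library labelled KO_D2 replicate 1 it was 1 higher and 4 lower, as with it. From day 2 to day 5, 6 genes rose and 2 fell in each genotype (16.2% and 13.1% of all genes in WT, 18.4% and 16% in PKR KO). From day 1 to day 2, 2 rose and 3 fell in WT (16.4% and 15.1%), and 2 rose and 4 fell in PKR KO (11.3% and 10.6%). These counts between treated days also rested on single libraries. The fall from day 2 to day 5 was 1 gene in WT without WT_D2 replicate 2 and 0 without WT_D5 replicate 2, and 1 in PKR KO without KO_D2 replicate 1, KO_D2 replicate 2 or KO_D5 replicate 1. From day 1 to day 2 in WT, 1 rose without WT_D1 replicate 2 or WT_D2 replicate 1, and 1 fell without WT_D1 replicate 1 or WT_D2 replicate 1. In PKR KO, 1 rose without KO_D1 replicate 1, KO_D1 replicate 2 or KO_D2 replicate 1, and 2 fell without KO_D1 replicate 2, KO_D2 replicate 1 or KO_D2 replicate 2.

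The ratio of Cd163 or Mrc1 to Marco or Siglec1 within a library does not depend on the scaling of libraries. Log2 of the Cd163 to Marco FPKM ratio at days 0, 1, 2 and 5 was 1.54 and 1.29, -4.73 and -5.59, -3.51 and -4.21, and -1.59 and -1.73 in the WT libraries. In PKR KO it was 0.90 and 1.65, -4.03 and -5.82, -5.03 and -5.78, and -1.32 and -1.38. All 4 day 0 libraries were above 0 and all 12 treated libraries below it. The Cd163 to Siglec1 ratio had another course: its WT mean was 1.69 at day 0, -5.72 ± 0.23 (SD, n = 2) on day 1, -2.43 ± 1.05 on day 2 and 2.06 ± 0.56 on day 5, and its PKR KO mean was 2.17, -5.17 ± 1.51, -4.01 ± 0.22 and 1.75 ± 0.76. Between the marginal zone and metallophil receptors, the Marco to Siglec1 ratio went from a mean of 0.28 ± 0.17 at day 0 to 3.72 ± 0.66 on day 5 in WT, and from 0.90 ± 0.57 to 3.10 ± 0.71 in PKR KO. The Mrc1 to Marco ratio fell from a mean of 3.24 to -1.29 on day 1 in WT and stood at 0.99 on day 5. These ratios are given without a test and describe these 4 genes, not cell populations. Other receptors of the same cells had other courses: Cd36, also made by red pulp macrophages, was not called in WT, while of the marginal zone genes Msr1 was highest and Cd209b near 0 on day 1.

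**Figure D3:**
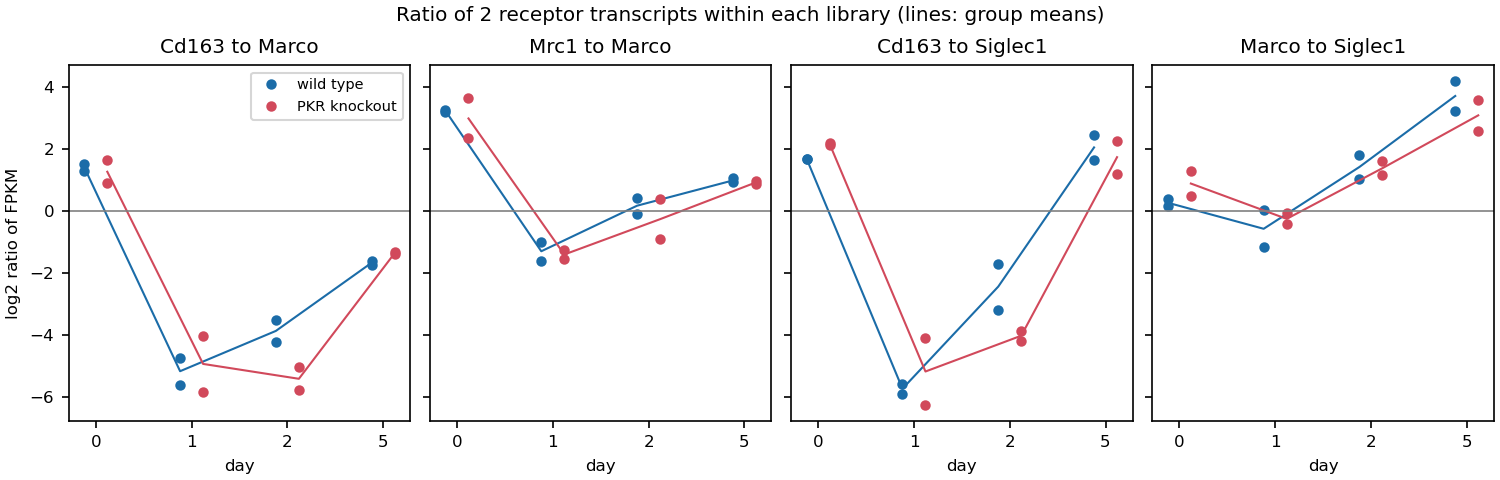
Log2 ratio of FPKM of 2 transcripts within each library (vertical axis) by day (horizontal axis); points are libraries, lines join group means, blue wild type and red PKR knockout. The Cd163 to Marco ratio is above 0 in the day 0 libraries and below it in all treated ones, while the Cd163 to Siglec1 ratio is back above 0 on day 5.

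No difference between PKR KO and WT passed the edgeR test for any of the 10 genes, on any day, in the change from day 0, or averaged over days. Over all genes, 0.0213% were called between the genotypes at day 0, 0.187% on day 1, 0% on day 2, 0.00533% on day 5 and 0.0267% averaged over days, and the change from day 0 differed for 0.171% on day 1 and 0% on the later days. At an unadjusted p under 0.05 there were 1, 1, 1 and 2 of the 10 genes on those days, and 1, 1 and 3 for the change from day 0 to days 1, 2 and 5. Over all 18745 genes there were 1114, 1718, 906 and 1177 at that threshold, and 2463, 762 and 1483 for the change from day 0. On day 2, adjusted p over the 10 genes with KO_D2 replicate 1 left out ran from 0.539 to 1 for the level and from 0.708 to 1 for the change from day 0. The smallest p of a level was that of Cd36 on day 5 (edgeR, unadjusted p = 0.000483), 0.73 ± 0.17 higher in PKR KO with both its libraries above both WT libraries (adjusted p = 0.29). Of the genotype differences in level, DESeq2 called that 1 (0.75, adjusted p = 0.0263), and so did edgeR with no filter on low counts (0.73, adjusted p = 9.85e-05). For Cd163 on day 1 the difference was 0.97 ± 0.584 (edgeR adjusted p = 0.65).

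Other receptors of these families were set beside the 10 genes. Of 16 other scavenger receptors tested, 3 were higher and 9 lower on day 1 in WT, where 21.9% and 22.7% of all genes were, and 5 higher and 4 lower in PKR KO (20.7% and 20.9%). On day 5, 7 were higher and 0 lower in WT (21.5% and 18%), and 8 and 0 in PKR KO (22.8% and 22.1%). Stab2, a receptor for hyaluronan on sinusoidal endothelium, changed by -2.58 on day 1 in WT (edgeR adjusted p = 4.12e-06). Timd4, a phosphatidylserine receptor of resident macrophages, changed by -2.50 in the same comparison (edgeR adjusted p = 6.24e-05). Cd5l, a secreted scavenger protein of macrophages, rose by 2.10 on day 5 in WT (edgeR adjusted p = 1.6e-06). Of 24 other C-type lectin receptors, 5 were higher and 10 lower on day 1 in WT, and 3 and 9 in PKR KO. Clec10a, a galactose-type lectin of dendritic cells, changed by -2.43 on day 2 in WT (edgeR adjusted p = 3.97e-05). Cd209c, another gene of the Cd209 family, went from 0.29 to 0.00806 CPM on day 1 in WT. Of 7 other siglecs, 1 was higher and 2 lower on day 1 in WT, and 2 and 3 in PKR KO. Siglech, a marker of plasmacytoid dendritic cells, changed by -3.40 in WT (adjusted p = 1.47e-07). On day 1 in WT the median log2 change was -0.69 over the other scavenger receptors, -0.28 over the other lectins and 0.23 over the other siglecs, against -0.07 over all genes. In PKR KO these medians were -0.70, -0.12 and 0.30, against -0.04.

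The red pulp list had 20 genes. On day 1 in WT 3 were higher and 11 lower (21.9% and 22.7% of all genes). In PKR KO 6 were higher and 7 lower (20.7% and 20.9%). The medians were -0.69 and -0.31. In WT on day 1, Trf (transferrin) changed by -3.67 (edgeR adjusted p = 1.12e-07) and Hpgd, which inactivates prostaglandins, by -3.49 (adjusted p = 1.32e-09). Vcam1, an adhesion molecule of red pulp macrophages, changed by -2.68 in the same comparison (edgeR adjusted p = 2.43e-08). The 3 that rose in WT, named after their values were seen, were Spic, the transcription factor of red pulp macrophages (0.69, adjusted p = 0.00225), Slc11a1, a metal transporter of phagosomes (0.66, adjusted p = 0.0212), and Cd5l (0.56, adjusted p = 0.0417). The summed level of the list was 368 to 421 CPM at day 0, 170 to 278 on day 1, 180 on day 2 and 537 to 623 on day 5 in WT. On day 5, 12 of the list were higher and 1 lower in WT (21.5% and 18% of all genes). In PKR KO 14 were higher and 1 lower (22.8% and 22.1%). The medians were 0.68 and 0.91 against -0.01 and -0.03 over all genes. Cd163 was below its day 0 level, though in PKR KO this did not hold without each single library. Trf, on the list, had lower means too. They were 33.4 CPM at day 0 and 19.9 on day 5 in WT, and 31.8 and 19.6 in PKR KO. Of 25 regulators of macrophage lineages, 4 were higher and 9 lower on day 1 in WT (median -0.16), and 7 higher and 6 lower in PKR KO (median 0.15). On day 5, 9 were higher and 10 lower in WT (median 0.10), and 7 and 7 in PKR KO (median -0.02). Among them, Nr1h3, which encodes LXRα, rose by 1.69 on day 1 (adjusted p = 2.09e-05), and Pparg rose by 2.07 on day 5 (adjusted p = 2.7e-06) in WT.

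Markers of other cells were counted as well. Of all genes in WT, 21.9% were higher and 22.7% lower on day 1, and 22.3% and 23% on day 2. On day 5 these shares were 21.5% and 18% in WT, and 22.8% and 22.1% in PKR KO. Of 14 conventional dendritic cell markers, 1 was higher and 9 lower on day 1 in WT, and 0 higher and 11 lower on day 2. Their summed level was 253 to 268 CPM at day 0 and 208 to 249 on day 1. It was 120 to 122 on day 2 and 227 to 244 on day 5. Cd8a, also on the spleen list, and Ccr7 made up much of this sum. Their means were 41.4 and 68.8 CPM at day 0 and 7.6 and 28.6 on day 2. The sum is therefore no measure of dendritic cells alone. Of 13 monocyte markers 3 were higher on day 1 in WT, close to the share of all genes, and 5 lower. Their median change was -0.68. Their sum nevertheless went from 494 to 567 CPM at day 0 to 891 to 1056. Plac8 (from a mean of 122 to 440 CPM, 1.85, edgeR adjusted p = 2.34e-08) and Ly6c2 (34.8 to 201 CPM, 2.53, adjusted p = 2e-09) led this rise. Among the 5 that fell were Fn1 (39.5 to 6.55 CPM, -2.61, edgeR adjusted p = 0.00442) and Cd177 (22.6 to 5.72 CPM, -1.99, adjusted p = 0.0208). The monocyte sum is no measure of monocytes alone. Neutrophil markers summed to 698 to 1306 CPM at day 0, 574 to 1211 on day 1, 185 to 280 on day 2 and 906 to 1066 on day 5 in WT, and on day 2 0 of 15 were higher and 9 lower. Stromal markers summed to 2.83 to 3.09 CPM at day 0, 17.4 to 21.1 on day 2 and 9.4 to 13.8 on day 5 in WT, and on day 2 8 of 10 were higher. All 14 erythroid markers were higher on day 5, where their sum was 8370 to 11800 CPM in WT and 16726 to 22912 in PKR KO, against 556 to 1350 and 1102 to 1767 at day 0. Endothelial markers summed to 117 to 123 CPM at day 0 and 134 to 152 on day 5 in WT, and Emcn and Lyve1 were at 0 in some groups. Platelet markers summed to 39.1 to 41.7 CPM at day 0 and 38.3 to 46.8 on day 5 in WT, and to 32.1 to 39.4 and 46.9 to 52.4 in PKR KO. Of 10 marginal zone B cell markers, 1 was higher and 8 were lower on day 5 in WT (median -0.92), and their sum went from 530 to 550 CPM at day 0 to 239 to 274, while Marco was highest. The part of these cells in the changes of the 10 genes was not tested.

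**Figure D4:**
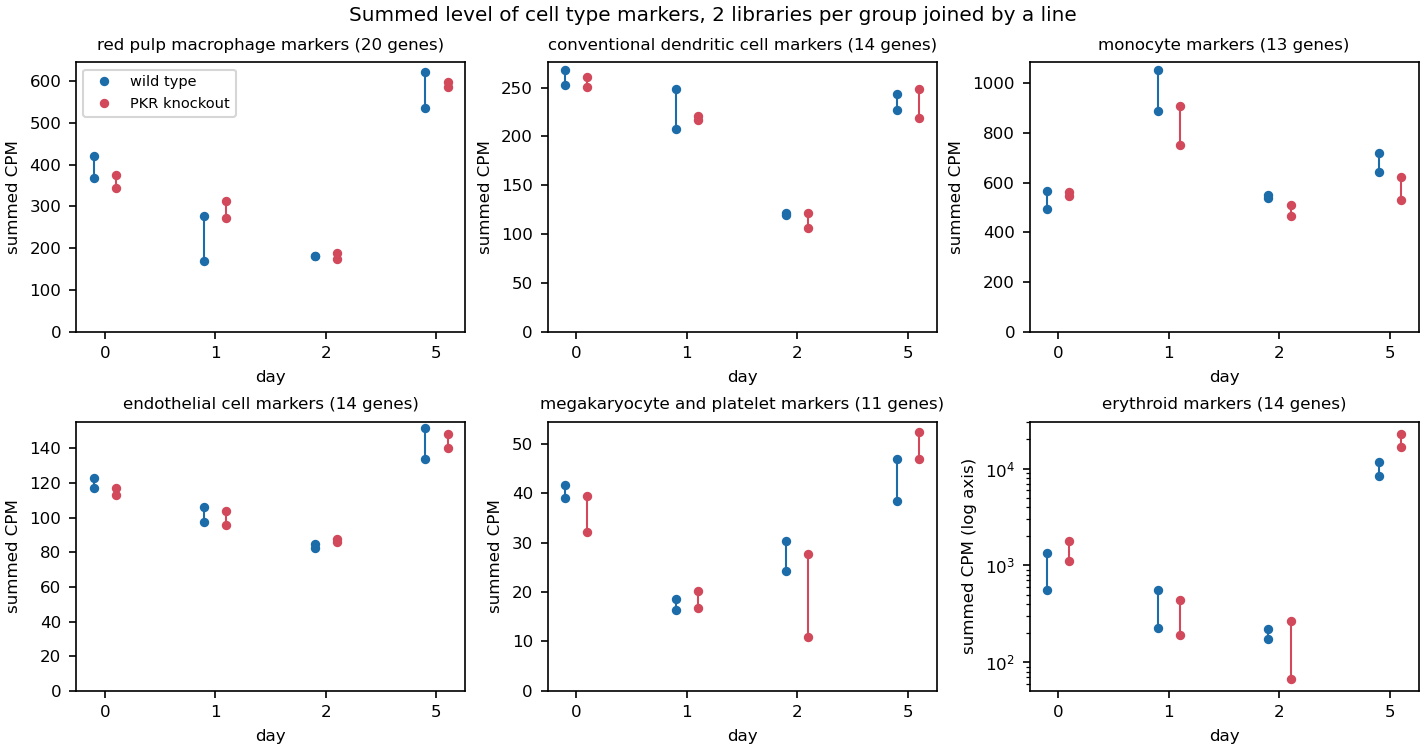
Summed CPM of the markers of 6 cell types (vertical axis; log axis for erythroid markers) by day (horizontal axis); points are the lower and the higher library of a group, joined by a line, blue wild type and red PKR knockout. Red pulp markers are below day 0 on days 1 and 2 and highest on day 5, and erythroid markers are highest on day 5.

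Across the 16 libraries, the log2 levels of Cd163 went with those of Cd209a (Pearson r = 0.94), Mrc1 (0.93) and Cd209d (0.93), and opposite to those of Msr1 (-0.78) and Siglec1 (-0.69), with r = -0.11 to Marco. Msr1 and Siglec1 went together (r = 0.86). These values describe 8 groups that share a time course and are given with no p. Among 9702 protein-coding genes with a mean FPKM of at least 1, the 5 most like Cd163 were Fry (r = 0.981), Trf (0.974), Slc49a4 (0.963), Ahnak (0.962) and Hpgd (0.962). For Siglec1 they were Prpf40b (0.963), Adar (0.957), Stat2 (0.953), Ccnyl1 (0.948) and Oas2 (0.939), and for Marco Pxmp2 (0.948), Egfl7 (0.934), Paqr4 (0.932), Drosha (0.927) and Agrn (0.925).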

How the data were processed

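Ribosomal RNA-depleted total RNA of 16 spleen libraries was sequenced with a strand-specific kit, per the labels' protocols. bcl2fastq 2.17.1.14, Trimmomatic, HISAT2, TopHat and mm10 are named in the submitters' processing notes, and the program that counted fragments is not given in the sources used here. Per the file headers, the authors deposited fragment counts, FPM (a signal: fragments scaled to the library total) and FPKM per transcript. Isoforms of a gene share fragments, so 1 transcript was taken per symbol: the protein-coding one (GENCODE M21, which held 99.1% of 142604 transcripts) with the highest mean count. Library totals were count divided by FPM. The counts were tested with edgeR 4.0.16 (TMM, filterByExpr, robust quasi-likelihood, 1 mean per group, 8 residual degrees of freedom, Benjamini-Hochberg over 18745 genes in each of 18 comparisons, threshold 0.05). The SE of a log2 change was derived from the quasi-likelihood test, as its size divided by the square root of the F value. FPKM served for levels between genes. Counting intervals are exact at 95% and the floor is 3 counts per library; both cover counting error only. Each library pools 2 mice, and nothing else says how the pools were formed, so p-values measure the spread between these pools. DESeq2 1.42.0, limma 3.58.1 on log2(FPKM + 0.1) and on log2(FPKM + 1), other filters, summed isoforms, a replicate block and leaving out each library were alternatives. From each gene list up to 4 genes with the largest change among those past the threshold were eligible to be named, or 2 where none passed, and likeness was Pearson's r of log2 CPM (prior count 2). The genes and lists were chosen with earlier results of these data known. The code was tested on simulated data with the same spread for every gene. That is a check of the code only, not of the results for genes with few counts.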

Additional observations from a re-analysis of the deposited data

How the results depend on the processing

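Of 937 recomputed values of the 10 genes that passed the test as reported, 861 still passed in the same direction under the 26 alternatives and 76 did not, and 0 reversed. Another 24 passed only under an alternative. A further 1781 values passed neither way, and 155 of these had the other sign. Of 552 recounts of higher or lower genes, 513 were within 1.5 times the reported count. On log2(FPKM + 1) the count of higher genes on WT day 2 was 1, and on both FPKM scales the counts of genes that rose from day 1 to day 2 were 1 in WT and 1 in PKR KO. Genes that fell from day 2 to day 5 in WT numbered 1 with a pseudocount of 0.1 and 0 with a pseudocount of 1, and in PKR KO 1 on both scales and 1 with summed isoforms. Higher genes on PKR KO day 2 numbered 2 with no filter, with DESeq2 and with the compared groups only. The latter gave 1 gene that fell from day 1 to day 2 in WT. PKR KO against WT on day 5 gave 1 higher gene with no filter and with DESeq2, and the change to day 5 differed between genotypes for 1 lower gene with no filter (Msr1, -1.24, adjusted p = 0.0176). Over all genes, PKR KO against WT on day 1 gave 27 higher and 8 lower as reported, 268 and 164 with no filter, 150 and 26 with DESeq2, 265 and 103 with the compared groups only, and 10 and 4 with an FPKM filter. For day 1 against day 0 in WT, 4108 genes were higher and 4254 lower as reported. On log2(FPKM + 0.1), fitted without TMM factors, they were 5876 and 1745 of 21967. That fit also differed from the main one in its model, its filter and its pseudocount. With only the scaling changed, to DESeq2 size factors in edgeR, 4198 genes were higher and 4163 lower. Summing isoforms moved 76 of 80 levels in FPKM by over 1 SD, since it adds transcripts. Leaving out 1 library gave these ranges: WT day 1 higher 1 to 3, WT day 2 higher 1 to 2, WT day 5 lower 2 to 4, PKR KO day 2 higher 1 to 2, PKR KO day 5 lower 2 to 3, WT day 1 to 2 higher 1 to 2 and lower 1 to 3, WT day 2 to 5 lower 0 to 2, PKR KO day 1 to 2 higher 1 to 2 and lower 2 to 3, and PKR KO day 2 to 5 lower 1 to 2. With the replicate block, genes that fell from day 2 to day 5 in PKR KO numbered 1, since Siglec1 (-1.09, edgeR adjusted p = 0.0436) had an adjusted p of 0.06. Without the library labelled KO_D2 replicate 1 this Siglec1 difference was -1.04. The block changed no other call on the 10 genes. Same-numbered deviations correlated at -0.211 to 0.333 (median 0.014) over 28 pairs of groups. Between the genotypes on the same day, r was 0.333 on day 0 and 0.301 on day 2, the highest values. It was -0.18 on day 1 and -0.161 on day 5. A batch shared by replicate number within a day was not tested. The cause of the shifts between settings was not tested. Pseudocounts shrink changes of low genes by construction: Cd163 on WT day 1 is -1.26 on log2(FPKM + 1). Cd209b (at most 18 counts per library) and Cd209d are limited by depth.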
